A study of Mus musculus with 12 samples.

Results

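The cytochrome P450 family was taken here as every probe set whose only gene symbol begins with Cyp followed directly by a digit, on the mouse arrays of a lung injury study. There were 98 such probe sets, for 73 of the 18193 genes with a probe set of their own, and each gene was read from its probe set with the highest mean over the 12 arrays. A filter on dim probe sets, a mean log2 level above 6.42 (the 40th percentile), left 26 P450 genes among 12921 genes tested, and 47 P450 genes did not pass it. Cyp17a1 lay just inside the filter with a mean level of 6.59 and Cyp2j9 just outside it at 6.39. Every count below is over the 26 genes that passed, unless stated otherwise.

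Cytochromes P450 are haem enzymes that insert an oxygen atom into their substrates, with electrons passed on from NADPH by a reductase or from ferredoxin in mitochondria. Members of the first families mostly oxidise foreign compounds, and others work on fatty acids and eicosanoids, on sterols, bile acids and steroid hormones, or on retinoids. In the mouse lung the club cells of the airways are known as the main site of foreign-compound oxidation, and Cyp1a1 is the classic target of the aryl hydrocarbon receptor (AhR), which binds DNA with its partner ARNT.

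Total RNA of lung tissue from mice aged 8 to 12 weeks was hybridised to 12 Affymetrix arrays, 3 in each of 4 groups. Control mice received PBS. The ventilated mice (VALI in the titles, VILI in the protocols) were ventilated for 4 hours at 30 ml/kg tidal volume, the rhPBEF mice had 20 µg of recombinant human PBEF placed in the trachea in 1.5 µl of water for each gram of body weight, and the mice of the combined group had both. PBEF, a cytokine-like protein first described as a colony-enhancing factor for early B cells, is encoded by Nampt. The labels give no strain, no time from instillation to tissue collection and no statement that ventilated mice received PBS or that water alone was instilled, so the agent and its carrier cannot be told apart. They hold no group ventilated at another tidal volume, so large breaths and ventilation itself cannot be told apart. Nothing states that replicates came from separate mice, and the p-values measure only the spread between these arrays, which may be technical.

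The values are log2 levels normalised by the authors, and the medians of the 12 arrays ran from 7 to 7.07. Markers of lung cells were high throughout, with the club cell gene Scgb1a1 between 14.82 and 15.02 and the type 2 cell gene Sftpc between 14.76 and 14.97. Ventilation replicate 2 stood apart on the second principal component (score -41.8, against -7.36 to 12 for the other arrays), and 2 arrays, rhPBEF replicate 2 and ventilation replicate 3, were high in skeletal muscle markers (Acta1 at 12.28 and 11.48, against 6.41 to 7.64 in the other arrays). In whole lung, fewer cells of a type and less RNA per cell cannot be told apart.

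The promoters of 4 of the 5 P450 genes that passed the test in the combined group, together with that of Cyp1b1, the other AhR target of the first family past the filter, are shown because Cyp1a1, Cyp2s1, Cyp4f18 and Cyp51 moved in different directions. Each is the 250 bases before the transcription start, 5′ to 3′ on the gene's strand, from RefSeq on GRCm38.p6, and the promoter table held 20 of the 26 genes. Capitals mark the AhR-ARNT core GCGTG on either strand. Of the motifs searched it is the one that these windows hold, and those of Cyp2s1 and Cyp4f18 hold none.
Cyp1a1, chr9:57697363-57697612, plus strand: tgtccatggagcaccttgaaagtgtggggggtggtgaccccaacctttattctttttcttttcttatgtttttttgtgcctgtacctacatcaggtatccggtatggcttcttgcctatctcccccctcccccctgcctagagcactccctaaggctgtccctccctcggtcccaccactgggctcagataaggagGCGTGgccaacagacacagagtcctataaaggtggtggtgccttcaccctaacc
Cyp1b1, chr17:79715062-79715311, minus strand: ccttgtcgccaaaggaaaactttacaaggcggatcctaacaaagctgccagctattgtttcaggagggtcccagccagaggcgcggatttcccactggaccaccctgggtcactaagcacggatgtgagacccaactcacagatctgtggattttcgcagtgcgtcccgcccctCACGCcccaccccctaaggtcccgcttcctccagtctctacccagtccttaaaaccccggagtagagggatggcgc
Cyp51, chr5:4104698-4104947, minus strand: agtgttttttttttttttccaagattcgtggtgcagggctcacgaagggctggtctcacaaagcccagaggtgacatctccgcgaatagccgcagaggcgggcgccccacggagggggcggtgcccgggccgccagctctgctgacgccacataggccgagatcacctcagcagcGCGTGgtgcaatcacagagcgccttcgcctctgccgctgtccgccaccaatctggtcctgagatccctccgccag
Cyp2s1, chr7:25816526-25816775, minus strand: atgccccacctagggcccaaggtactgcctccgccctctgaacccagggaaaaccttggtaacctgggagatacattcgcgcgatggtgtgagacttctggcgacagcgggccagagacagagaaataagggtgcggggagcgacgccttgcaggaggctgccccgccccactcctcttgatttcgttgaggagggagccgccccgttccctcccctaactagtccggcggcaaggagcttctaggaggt
Cyp4f18, chr8:72009627-72009876, minus strand: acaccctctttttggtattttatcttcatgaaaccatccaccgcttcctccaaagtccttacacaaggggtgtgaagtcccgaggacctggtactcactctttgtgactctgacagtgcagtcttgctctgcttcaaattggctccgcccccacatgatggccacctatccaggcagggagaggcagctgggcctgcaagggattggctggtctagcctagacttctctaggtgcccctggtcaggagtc

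The core GCGTG lay 54 bases before the start of Cyp1a1 and 75 before that of Cyp51, and Cyp1b1 held it on the opposite strand 76 bases before its start. The letters occurred in 8 of the 20 P450 promoters and in 28.2% of 32851 promoters of the same length. The E-box CACGTG, which contains no GCGTG, was found in 2 of the 20 (6.02% of all), the AP-1 letters TGANTCA in 3 (6.75%), and an NF-kB motif (1.41%), the D-box TTANGTAA (2.06%) and the sterol element TCACNCCAC (1.05%) in 0, with both strands searched. These matches are descriptions of the windows, not binding sites, and a window without a match says only that those letters are not in it.

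The median difference of the 26 genes from control was small in each treated group. It depended on the filter, and the 16 genes past the 60th percentile had a median of -0.32 after both treatments. The median of all genes past that filter was not computed. After both treatments, 5 of the 26 genes passed an adjusted p of 0.05 in limma, against 8.79% of all genes tested. The 3 that fell were Cyp1a1, Cyp2d22 and Cyp2s1 (all genes lower, 4.86%), and the 2 that rose were Cyp4f18 and Cyp51 (all genes higher, 3.93%). The median difference of the 26 genes from control was -0.10 on the log2 scale after both treatments, beside -0.06 for all genes, and 21 of the 26 were negative, beside 61.8% of all genes.

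**Figure D1:**
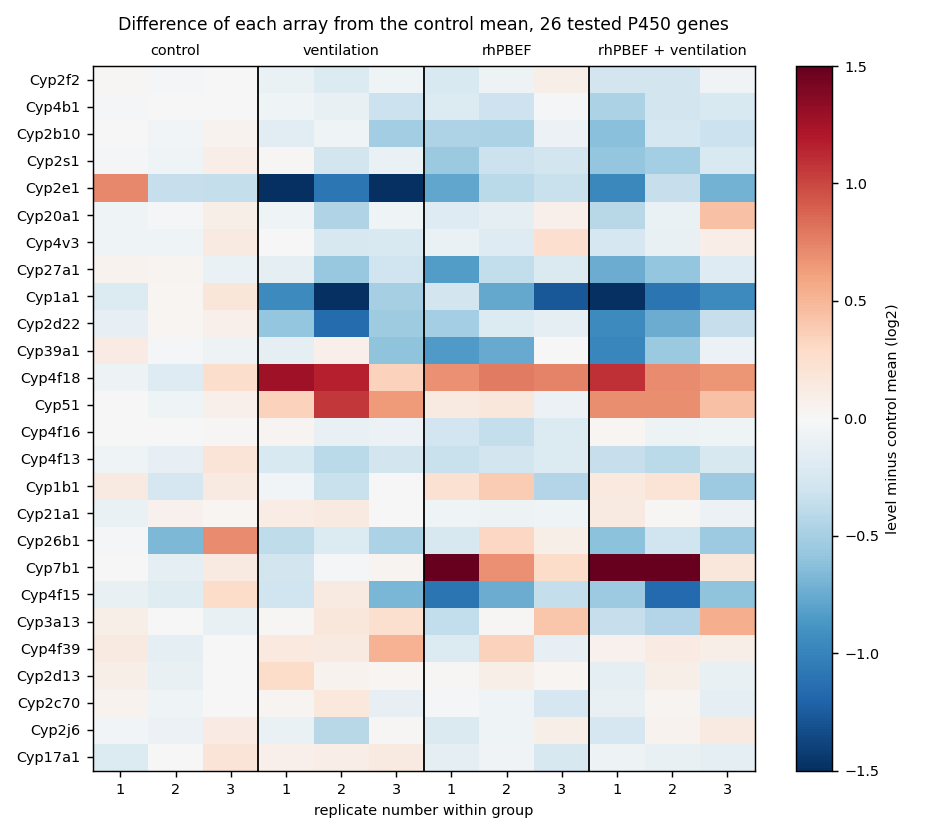
Difference of each array (columns, 3 per group) from the control mean on the log2 scale for the 26 tested P450 genes (rows, ordered by mean level), with blue lower and red higher and the colours at their limit beyond 1.5. Cyp1a1 and Cyp2d22 are blue in all 9 treated arrays and Cyp4f18 is red in all 9, while Cyp51 is red in all 6 ventilated arrays.

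With either treatment alone no P450 gene passed the threshold. For rhPBEF against control the count was 0 (1.22% of all genes passed), and 8 of the 26 genes had an unadjusted p under 0.05 in limma, 2 higher and 6 lower (18.3% of all genes). For ventilation against control the count was 0 (0.00774% of all genes passed), and 6 had an unadjusted p under 0.05, 2 higher and 4 lower (15.5%). After both treatments 12 did, 3 higher and 9 lower (27.5%). The median difference of the 26 genes was -0.10 for rhPBEF and -0.14 for ventilation, beside -0.07 and -0.04 for all genes, and 18 of the 26 were negative in each, close to the 65.7% and 59% of all genes that were. These 3 comparisons share the control arrays. Leaving out ventilation replicate 3 gave 1 call for rhPBEF (1.49% of all genes) and 1 for ventilation (0.333%), Cyp4f18 in each. The arrays lay apart from control, with no overlap, for 2 genes higher and 8 lower after rhPBEF (9.24% and 24% of all genes), for 3 and 9 after ventilation (9.1% and 15.5%), and for 3 and 10 after both (12.5% and 24.4%).

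**Figure D2:**
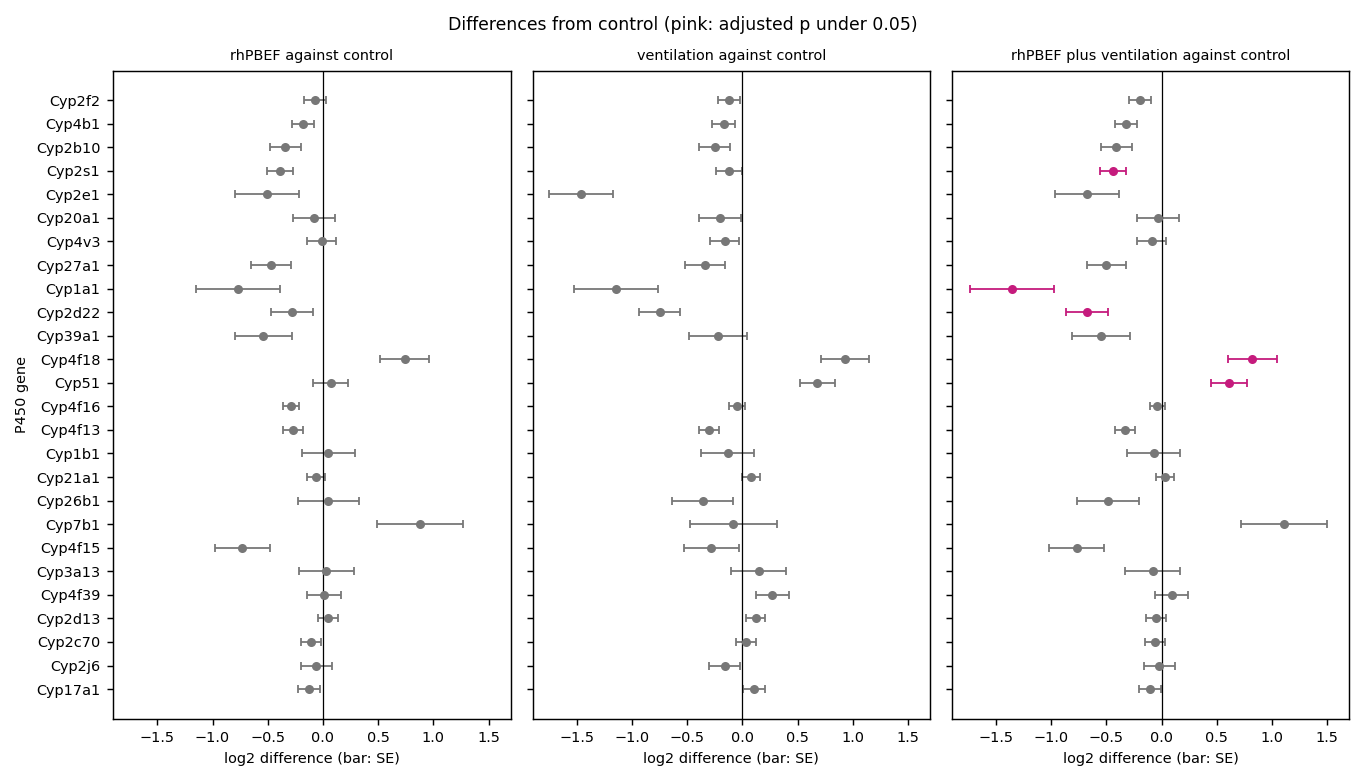
Difference from control on the log2 scale (points, with the standard error as bars) of the 26 tested P450 genes in each treated group, with genes ordered by mean level. Pink marks the 5 genes past an adjusted p of 0.05, all in the panel of both treatments, where Cyp1a1 stands at -1.36 and Cyp4f18 at 0.82.

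Each call after both treatments lay close to the threshold, with adjusted p from 0.0399 to 0.0495, and depended on single arrays. Leaving out any 1 of the 3 control arrays, or replicate 1 or replicate 2 of the combined group, left 0 calls. In those settings the share of all genes that passed fell as well, to between 1.18% and 2.03%. These 5 genes kept their direction in all 22 settings tried. Leaving out rhPBEF replicate 1, 2 or 3 left 1 call (6.4% to 7.91% of all genes), and leaving out ventilation replicate 1 left 3 (7.56%). Leaving out replicate 3 of the combined group gave 9, where 19.3% of all genes passed. Without both arrays high in skeletal muscle markers 1 call was left, that of Cyp4f18 (8.15% of all genes passed). With no filter on dim probe sets 1 was left as well, that of Cyp51 (5.21%). With each array centred on its median, 2 were left, Cyp4f18 and Cyp51 (7.21%). Array weights gave 14 calls, where 44.8% of all genes passed.

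Among the enzymes of the first family, which oxidise polycyclic aromatic hydrocarbons and are induced through the AhR, Cyp1a1 (probe set 1422217_a_at) showed the largest fall among the 26 genes after both treatments. Its log2 level was 9.89, 10.12 and 10.27 in control, 9.82, 9.32 and 8.82 after rhPBEF, 9.13, 8.15 and 9.59 after ventilation, and 8.08, 9.0 and 9.13 after both. All 9 treated arrays lay below the lowest control array, and the arrays of the treated groups overlapped one another. The group means were 10.09 ± 0.19 (SD, n = 3) in control and 8.74 ± 0.57 (SD, n = 3) after both, a difference of -1.36 ± 0.38 (SE), 2.56-fold lower, with an adjusted p of 0.0495. The difference was -1.14 ± 0.38 after ventilation (adjusted p = 0.218) and -0.77 ± 0.38 after rhPBEF, and between the combined group and rhPBEF alone it was -0.58 ± 0.38 (adjusted p = 0.999). Cyp1b1 did not pass in any comparison and stood at -0.07 ± 0.24 after both, with levels from 7.59 to 7.98 in control and from 7.29 to 8.05 after both, which overlap. Cyp1a2 did not pass the filter.

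Of 5 tested AhR targets outside the family, 1 rose and 0 fell after both treatments, beside 3.93% and 4.86% of all genes. Among the 5, 3 were above control and 2 below, and 3 had an unadjusted p under 0.05 in limma (27.5% of all genes). Tiparp, which encodes an ADP-ribosyltransferase that restrains the receptor, rose by 1.14 ± 0.24 (adjusted p = 0.0219), from 10.68, 10.65 and 11.06 in control to 12.14, 11.87 and 11.81, so that the groups did not overlap. Nfe2l2, a regulator of antioxidant genes, stood at 0.63 ± 0.26 (adjusted p = 0.148). Aldh3a1 was lower and did not pass, at 9.61, 9.51 and 9.50 in control and 8.84, 9.01 and 9.24 after both, without overlap. The receptor gene Ahr, added after its values were seen together with Arnt, stood at -0.24 ± 0.18 and Arnt at 0.20 ± 0.08, neither past the threshold.

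The second family holds most lung enzymes of foreign-compound oxidation. All 7 of its tested genes outside the Cyp2j group were below control after both treatments, with a median difference of -0.41. Of all genes 61.8% were negative, with a median of -0.06, and the 7 ran from -0.68 to -0.05, so that the smallest were no lower than that median. Cyp2s1 (probe set 1428283_at), an enzyme of epithelia outside the liver, had log2 levels of 11.33, 11.28 and 11.45 in control, 10.79, 11.03 and 11.08 after rhPBEF, 11.37, 11.07 and 11.25 after ventilation, and 10.77, 10.84 and 11.12 after both. The arrays of both rhPBEF groups lay below all control arrays, and those of ventilation alone overlapped control. It fell after both by 0.44 ± 0.12 (SE) on the log2 scale, 1.36-fold lower (adjusted p = 0.0459), and was the one P450 gene past the threshold when both rhPBEF groups were set against both groups without it, where it fell by 0.35 ± 0.08 (adjusted p = 0.0417). In that averaged comparison 4.67% of all genes passed, and 9 P450 genes had an unadjusted p under 0.05 (23.7% of all genes). Leaving out any control array, ventilation replicate 1, rhPBEF replicate 1 or 2, or replicate 1 or 2 of the combined group left 0 calls in it. Centring each array on its median did so as well, as did leaving out both arrays high in skeletal muscle markers. In these settings 1.81% to 4.22% of all genes passed. Without ventilation replicate 3 the call of Cyp2s1 was lost as well and the 1 call was that of Cyp4f15, so that 11 of 21 settings ended it. Leaving out rhPBEF replicate 3 or replicate 3 of the combined group gave 2 calls (4.97% and 12.2% of all genes).

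Cyp2d22 (probe set 1419040_at), of the CYP2D group known for drug oxidation, stood at 9.52, 9.67 and 9.72 in control, 9.13, 9.43 and 9.51 after rhPBEF, 9.06, 8.49 and 9.11 after ventilation, and 8.68, 8.90 and 9.30 after both. Every treated array was below every control array, with the rhPBEF array at 9.51 only just so. It fell after both by 0.68 ± 0.19 (SE), 1.6-fold lower, with an adjusted p of 0.0488, and its second probe set had a difference of -0.76. After ventilation alone the difference was -0.75 ± 0.19 (adjusted p = 0.146).

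Cyp2e1, which oxidises ethanol and acetaminophen, had the largest difference from control of the 26 genes after ventilation. Its log2 level was 11.89, 10.83 and 10.81 in control, 9.42, 10.09 and 9.63 after ventilation, 10.39, 10.76 and 10.84 after rhPBEF, and 10.20, 10.83 and 10.46 after both. The ventilated arrays lay below all others, control replicate 1 lay above all others, and the remaining arrays of control overlapped those of both rhPBEF groups. The difference after ventilation was -1.46 ± 0.29 (SE), 2.75-fold lower, and did not pass the threshold (adjusted p = 0.0967). After both it was -0.68 ± 0.29, and the interaction, the departure of the combined group from the sum of the single effects, was 1.30 ± 0.41 (adjusted p = 0.998). The mean of 6 measured adipocyte markers was also highest in control replicate 1, at 9.26 against 8.15 and 8.26 in the other control arrays, 7.24 to 7.69 after ventilation, 7.96 to 8.13 after rhPBEF and 7.83 to 7.91 after both, with Adipoq at 11.08 in control replicate 1 and from 8.04 to 8.96 after ventilation. Its part in the Cyp2e1 values was not tested.

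The remaining genes of the second family differed less. Cyp2f2, the club cell enzyme that activates naphthalene in mouse airways, stood at 14.32, 14.27 and 14.31 in control and at 14.03, 14.03 and 14.25 after both, arrays that did not overlap, with a difference of -0.20 that did not pass. Cyp2b10, a constitutive lung enzyme that in liver responds to the receptor CAR, stood at 12.63, 12.60 and 12.69 in control, 12.18, 12.17 and 12.55 after rhPBEF, and 12.01, 12.38 and 12.32 after both. Its arrays after either did not overlap control, its 3 probe sets had differences of -0.41, -0.41 and -0.50 after both, and none of its comparisons passed. The probe set it was read from carries the suffix by which Affymetrix marks sets that can match related transcripts. Over the 8 club cell markers the mean level was between -0.14 and 0.08 of the control mean after both. Of the 8, 0 passed in limma (8.79% of all genes), with 3 at an unadjusted p under 0.05 (27.5%). The markers went both ways, with 5 above control and 3 below. The smallest adjusted p of that list were 0.1 for Aldh1a7, at -0.47, and 0.107 for Hp, at 0.30. Hp passed when rhPBEF was averaged over ventilation, at 0.45 (adjusted p = 0.00933 in limma, where 4.67% of all genes passed).

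In the fourth family, whose enzymes hydroxylate fatty acids and eicosanoids, Cyp4f18 (probe set 1419219_at), known for inactivating leukotriene B4 in mouse neutrophils, rose. Its log2 level was 7.96, 7.85 and 8.30 in control, 8.73, 8.82 and 8.78 after rhPBEF, 9.31, 9.21 and 8.38 after ventilation, and 9.14, 8.75 and 8.70 after both. All 9 treated arrays lay above the highest control array, and ventilation replicate 3 only just did. After both treatments the rise was 0.82 ± 0.22 (SE), 1.77-fold, with an adjusted p of 0.0448, and the differences were 0.93 ± 0.22 after ventilation (adjusted p = 0.137) and 0.74 ± 0.22 after rhPBEF (adjusted p = 0.133). Leaving out ventilation replicate 3 put the gene past the threshold in both, at 1.22 after ventilation (adjusted p = 0.0112) and 0.74 after rhPBEF (adjusted p = 0.0311), and a fit of the rhPBEF and control arrays alone did so for rhPBEF (adjusted p = 0.0163). The interaction was -0.84 ± 0.31 (adjusted p = 0.998). A second, dim probe set of the gene, with a mean level of 5.59, had a difference of 0.03 after both.

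Neutrophil markers were higher in the same arrays, and of 8 tested 2 rose after rhPBEF, 0 after ventilation (6 at an unadjusted p under 0.05 in limma) and 5 after both. Of all genes, 1.22%, 0.00774% and 8.79% passed in these comparisons, in either direction. The mean of the 9 measured ones ran from 7.78 to 8.07 in control, 9.73 to 10.16 after rhPBEF, 8.56 to 10.59 after ventilation and 9.47 to 11.22 after both, and was lowest among treated arrays in ventilation replicate 3, where Cyp4f18 was lowest as well. After both treatments S100a8 rose by 3.01, S100a9 by 3.38 and Csf3r, the receptor for granulocyte colony-stimulating factor, by 1.97. The part of neutrophil number in the Cyp4f18 values was not tested.

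**Figure D3:**
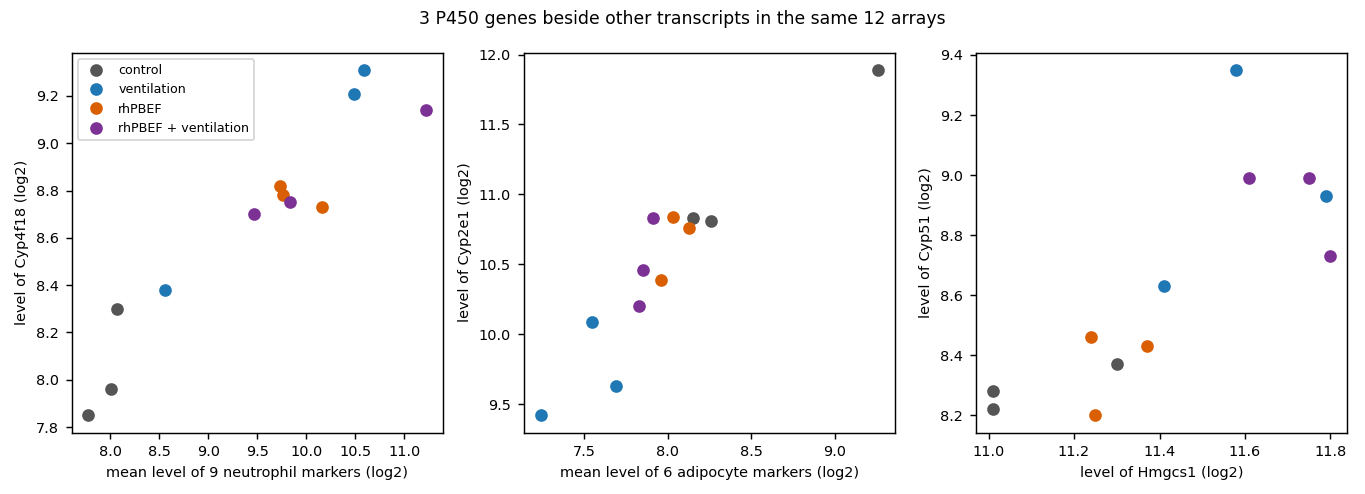
Level of 3 P450 genes in each of the 12 arrays (points, coloured by group) against other transcripts of the same arrays, all on the log2 scale. Cyp4f18 is set against the mean of 9 neutrophil markers, Cyp2e1 against the mean of 6 adipocyte markers, and Cyp51 against Hmgcs1. Control replicate 1 sits alone at the upper right of the middle panel, at 9.26 and 11.89.

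Other genes of the fourth family did not pass in any comparison. Cyp4f15 stood at 7.30, 7.23 and 7.69 in control, 6.32, 6.67 and 7.05 after rhPBEF, and 6.87, 6.24 and 6.81 after both, with a difference of -0.77 ± 0.25 after both (adjusted p = 0.0763), and neither treated group overlapped control. Cyp4f13 had -0.33 ± 0.09 (adjusted p = 0.0558), also without overlap, and Cyp4b1, a lung enzyme that activates the toxin ipomeanol, -0.32 ± 0.10 (adjusted p = 0.0692). Cyp4f16 differed after rhPBEF alone, from 8.04, 8.03 and 8.06 in control to 7.75, 7.68 and 7.84, by -0.29 ± 0.07 (adjusted p = 0.089), while the combined arrays lay at 8.07, 7.96 and 7.98, around the control values. A second probe set of Cyp4f16 had -0.09 after rhPBEF. Cyp4v3, with -0.09, and Cyp4f39, with 0.09, differed little after both. After ventilation Cyp4f39 had 0.27 ± 0.15 (adjusted p = 0.39), with arrays only just above those of control.

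Of the sterol and bile acid enzymes, Cyp51 (probe set 1450646_at), the lanosterol demethylase of cholesterol synthesis, rose in the ventilated groups. Its log2 level was 8.28, 8.22 and 8.37 in control, 8.43, 8.46 and 8.20 after rhPBEF, 8.63, 9.35 and 8.93 after ventilation, and 8.99, 8.99 and 8.73 after both. All 6 ventilated arrays lay above all 6 unventilated arrays. After both treatments the rise was 0.61 ± 0.16 (SE), 1.53-fold, with an adjusted p of 0.0399, and after ventilation alone the difference was 0.68 ± 0.16 (adjusted p = 0.128). Averaged over rhPBEF, the ventilated groups were higher by 0.61 ± 0.11, with an adjusted p of 0.0442, the 1 P450 gene past the threshold in that comparison, where 0.549% of all genes passed and 7 P450 genes had an unadjusted p under 0.05 (16.6% of all genes). Leaving out any control array, any rhPBEF array, or replicate 1 or 2 of the combined group left 0 calls in that comparison. Fitting without the filter or taking the mean of a gene's probe sets did so as well. In these settings 0.0464% to 0.48% of all genes passed. Leaving out replicate 3 of the combined group gave 2 calls (4.29%). Without ventilation replicate 3, or without both arrays high in skeletal muscle markers, Cyp51 lost its call too, and 13 of the 21 settings tried ended it. A second probe set past the filter had differences of 0.38 after rhPBEF, 1.19 after ventilation and 0.87 after both. Another, dim one had -0.07, 0.23 and 0.10.

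**Figure D4:**
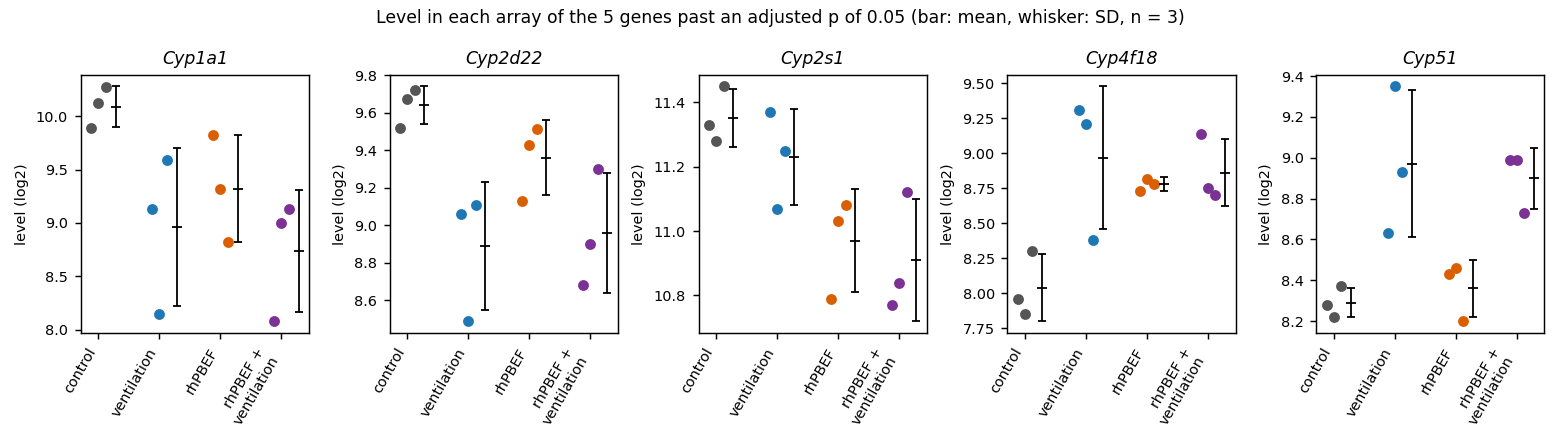
Log2 level in each array (points, 3 per group) of the 5 P450 genes past an adjusted p of 0.05 after both treatments, with the group mean as a bar and the SD as a whisker; each panel has its own axis. Cyp51 is above 8.6 in all 6 ventilated arrays and below 8.5 in all 6 others, whereas the treated groups of Cyp1a1 overlap one another.

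Of the 14 other sterol synthesis genes tested, 2 rose and 1 fell after both treatments (3.93% and 4.86% of all genes). Hmgcs1, which makes the HMG-CoA of the pathway, rose by 0.61 ± 0.11 (adjusted p = 0.0147) and Idi1, an isomerase of its early steps, by 0.54 ± 0.13 (adjusted p = 0.0314), whereas Nsdhl, which acts after Cyp51, fell by 0.41 ± 0.09 (adjusted p = 0.0288). Hmgcs1 stood at 11.01, 11.01 and 11.30 in control, 11.37, 11.24 and 11.25 after rhPBEF, 11.41, 11.58 and 11.79 after ventilation, and 11.61, 11.75 and 11.80 after both, so that, as for Cyp51, its ventilated arrays lay above the others. Averaged over rhPBEF, ventilation raised Hmgcs1 by 0.46 and Idi1 by 0.51 (adjusted p = 0.0442 for each), and the list's median difference was 0.22, beside -0.02 for all genes. After both treatments the list's median was 0.09 (-0.06 for all genes), with 9 genes above control and 5 below. After rhPBEF alone it was -0.12 (-0.07 for all genes), with 5 above and 9 below.

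Cyp7b1, an oxysterol hydroxylase, was higher in the rhPBEF groups, though past no threshold. Its log2 level was 6.95, 6.83 and 7.09 in control, 6.69, 6.94 and 7.0 after ventilation, 8.63, 7.65 and 7.23 after rhPBEF, and 8.61, 8.47 and 7.13 after both. All 6 rhPBEF-treated arrays lay above all 6 others, and they spread widely, with replicate 3 of each group close to control. The difference averaged over ventilation was 1.04 ± 0.28 (SE), 2.05-fold higher, with an adjusted p of 0.0577, and after both treatments it was 1.11 ± 0.39. Leaving out replicate 3 of the combined group put the gene past the threshold averaged over ventilation (1.27, adjusted p = 0.00468) and against ventilation alone (1.66, adjusted p = 0.0199), and leaving out rhPBEF replicate 3 did so for the average (1.19, adjusted p = 0.0379). A second probe set had 0.98 after both. Cyp27a1, the mitochondrial sterol hydroxylase, stood at 9.94, 9.93 and 9.79 in control and 9.15, 9.31 and 9.70 after both, a difference of -0.50 ± 0.18, and Cyp39a1, another oxysterol hydroxylase, at 9.51, 9.36 and 9.31 and at 8.41, 8.83 and 9.30, a difference of -0.55. Neither passed, and their groups did not overlap.

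The steroid hormone enzymes Cyp21a1 and Cyp17a1, both textbook genes of the adrenal cortex, had levels between 6.39 and 7.75 in all arrays and did not pass in any comparison. Cyp17a1 was lower after both treatments than after ventilation alone, at 6.55, 6.52 and 6.49 against 6.71, 6.73 and 6.77, by -0.22 ± 0.10 (adjusted p = 0.475). Of the 5 measured adrenal markers, Mc2r, Nr5a1 and Hsd3b1 were below the filter, and Star, between 7.18 and 7.41, and Fdx1, a ferredoxin of many tissues between 11.88 and 12.19, were above it. Cyp26b1, which clears retinoic acid, stood at 7.65, 7.0 and 8.38 in control and 7.06, 7.37 and 7.12 after both, a difference of -0.49 with all arrays inside the control range. Cyp2j6, an epoxygenase of arachidonic acid, and Cyp3a13 had differences of -0.02 and -0.08 after both, and Cyp20a1, whose substrate is not known, -0.03.

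Between the combined group and either single treatment no P450 gene passed. Against ventilation the count was 0 (0.325% of all genes), with 4 genes at an unadjusted p under 0.05 in limma (9.98%), of which Cyp7b1 at 1.20 ± 0.39 (adjusted p = 0.328) and Cyp2e1 at 0.78 ± 0.29 (adjusted p = 0.404) were higher and Cyp2s1 at -0.32 ± 0.12 (adjusted p = 0.422) lower. Against rhPBEF the count was 0 (0.00774%), with 2 at an unadjusted p under 0.05 (3.77%), Cyp4f16 at 0.25 ± 0.07 and Cyp51 at 0.54 ± 0.16, both with an adjusted p of 0.999. For the interaction 0 genes passed in the family and 0% of all genes, and 3 had an unadjusted p under 0.05 (2.23%), namely Cyp2e1, Cyp4f16 at 0.30 ± 0.10 and Cyp4f18.

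The partners of the P450 enzymes were described from lists written for the family. The redox and haem list held 12 genes and 10 were tested, without the reductase that takes electrons from NADPH. All 10 tested redox and haem partners were below control after both treatments, with a median difference of -0.26 (of all genes 61.8% were negative, with a median of -0.06), and 2 fell (4.86% of all genes), Pgrmc2, a haem-binding membrane protein, by 0.40 ± 0.10 and Cyb5r1, a cytochrome b5 reductase family member, by 0.44 ± 0.12 (adjusted p = 0.0439 and 0.0481). Of 23 receptors and transcription factors, 1 rose, Cebpb by 0.80 ± 0.19, and 4 fell (3.93% and 4.86% of all genes). These were Cebpa, a factor of alveolar and liver cell differentiation, by 0.50 ± 0.09, the retinoic acid receptors Rarg by 0.66 ± 0.14 and Rarb by 0.95 ± 0.22, and Dbp, a clock-controlled factor of hepatic P450 genes, by 1.36 ± 0.36. Cebpa also fell after rhPBEF alone, by 0.48 ± 0.09 (adjusted p = 0.0355), with arrays at 11.58, 11.38 and 11.47 in control and 11.02, 10.83 and 11.13 after rhPBEF, which do not overlap.

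Of 34 conjugation and other detoxification enzymes, 0 rose and 4 fell after both treatments, 31 were below control and the median difference was -0.31, beside 4.86% of all genes lower past the threshold, 61.8% negative and a median of -0.06. The carbonyl reductase gene Cbr1 fell by 0.62 ± 0.12, the alcohol dehydrogenase gene Adh7 by 0.96 ± 0.23, and the glutathione transferase genes Gstt3 and Gstt2 by 0.85 ± 0.22 and 0.59 ± 0.16. After ventilation alone all 34 were below control with a median of -0.29, and 0 passed in limma, with 11 at an unadjusted p under 0.05 (15.5% of all genes). The prostanoid synthases Ptgis and Tbxas1, P450 enzymes by structure that carry other names, had differences of -0.36 ± 0.11 and -0.29 ± 0.09 after both (adjusted p = 0.0592 and 0.0785). Among 8 steroid and retinoid neighbours Hsd11b2, which inactivates glucocorticoids, rose by 1.25 ± 0.27 (adjusted p = 0.0226), and the other 7 did not pass (3.93% of all genes rose).

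The mean of the endothelial markers was below control in every treated array. After both treatments 12 of the 16 markers were below control and 4 above it. Of 16 measured, 5 fell after both treatments, beside 4.86% of all genes (differences of -0.67 for Eng, -0.76 for Egfl7, -1.44 for Sox18, -0.77 for Ramp2 and -0.86 for Sox17), and the list's mean level per array minus the control mean ran from -0.58 to -0.23 after both, -0.63 to -0.35 after ventilation and -0.27 to -0.15 after rhPBEF. After ventilation alone, 9 of the 26 P450 genes lay below control without overlap and 3 above it (15.5% and 9.1% of all genes). Cyp1a1, Cyp2d22 and Cyp2e1 were among the 9, whereas Cyp2s1 overlapped control. The part of endothelial markers in the P450 values was not tested.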

How the data were processed

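Lung RNA of 12 mouse samples was measured on Affymetrix arrays, and groups were taken from the sample titles, with which the treatment protocols agreed for every sample. A description field that names all samples control animals was not used. The authors deposited 1 table of normalised log2 levels, with a value for each probe set in each sample. MAS5 and GCRMA are named per the submitters' processing notes, with no role or version, and how the levels were normalised is not given in the sources used here. Without detection calls, dim transcripts and background cannot be separated. Precision is limited by the 12 arrays.

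From 45101 probe sets the 64 manufacturer controls were removed. Of the other 45037, 34945 carried 1 gene symbol and were used, 932 carried several and 9160 none. Entrez identifiers changed 0 of the P450 symbols. The moderated test of limma 3.58.1 (R 4.3.3; 8 residual degrees of freedom, 2.99 prior) was run on the 4 group means over all 12921 genes above the filter, with Benjamini-Hochberg adjustment in each of 8 comparisons and a threshold of 0.05. The steps were tested on simulated data.

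The genes named were those past 0.05, the 6 with the smallest p in each comparison with control and 3 in each other one, the 10 with the highest mean level, and the highest in each role class. Of other lists, the members past 0.05 and the 2 with the smallest p were named, and defining markers. The members and lists were chosen with earlier results of these data known. The lists held 249 genes, of which 221 were on the array and 196 were tested. Markers of 14 tissues and cell types were read, and those not described in the report are given with the other observations. Promoters came from RefSeq (GRCm38.p6). Alternatives changed the filter, scaling, variance model, array weights (the gene-by-gene method, since the default did not converge), the handling of several probe sets, the arrays fitted and the replicate block, and left out each array in turn. Plots used Python 3.11.15 and matplotlib 3.10.9.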

Additional observations from a re-analysis of the deposited data

How the results depend on the processing

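The count of P450 genes past 0.05 after both treatments was 5 in the report, where 8.79% of all genes passed. It was 1 with no filter (5.21% of all genes), 2 with equal array medians (7.21%) and 14 with array weights (44.8%). Without both arrays high in skeletal muscle markers (chosen after seeing the data) it was 1 (8.15%). A replicate block gave 4 (9.77%). It kept Cyp2d22, Cyp2s1 and Cyp51 and gained Cyp4f13 (adjusted p = 0.0386 in limma). Cyp1a1 and Cyp4f18 were lost with it, at 0.0617 and 0.0502. Single arrays left out gave 0 to 9 (1.18% to 19.3%). The count was 5 with the stricter filter, the intensity trend and the mean of probe sets, and 4 with quantile normalisation (8.12% to 10.7% of all genes). For rhPBEF the count of 0 became 5 with array weights (11.2% of all genes) and 1 with only the arrays compared (602 genes in all). With arrays left out it was 0 to 1 (0.34% to 2.72%). For ventilation it became 4 with array weights (2.16%) and 1 without both muscle-marker arrays (0.263%). With arrays left out it was 0 to 1 (0% to 0.333%). Against ventilation alone, array weights gave 2 (5.22%) and arrays left out gave 0 to 1 (0.101% to 3.13%). Against rhPBEF alone, array weights gave 1 (0.217%). The rhPBEF effect averaged over ventilation, with 1 call, had 0 with equal medians (4.22%) and 0 without both muscle-marker arrays (3.42%). Weights gave it 7, beside 23.5% of all genes, and arrays left out 0 to 2 (1.81% to 12.2%). The averaged ventilation effect, with 1 call, had 0 with no filter (0.22%), the mean of probe sets (0.48%) or a replicate block (0.395%). Weights gave it 5 (9.39%), and arrays left out 0 to 2 (0.0464% to 4.29%). The cause of these changes was not tested.

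Median P450 differences moved with the filter, which left 16 P450 genes at the 60th percentile, beside 73 with no filter. They were -0.27 for rhPBEF at the 60th percentile and 0.01 for ventilation with no filter. After both they were -0.03 with no filter and -0.32 at the 60th percentile. The medians of all genes under these filters were not computed. Array weights gave -0.07 for ventilation, and single arrays left out gave -0.26 to -0.10 after both. Differences near 0 changed sign: Cyp4v3 after rhPBEF was 0.02 with equal medians, 0.00 with quantile normalisation, 0.01 with weights, 0.08 without both muscle-marker arrays, and -0.14 to 0.08 with arrays left out, Cyp2f2 after rhPBEF ran from -0.16 to 0.01, and Cyp20a1 after both from -0.26 to 0.17. Whether same-numbered arrays belong together could not be settled. Their deviations from the group means correlated at -0.21 to 0.526 over 18 pairs (median 0.065). Pairs with other numbers, 36 in all, ran from -0.53 to 0.328 (median -0.0623), so the ranges overlap and the same-numbered median is the higher. The replicate block is therefore given as a setting and not as a paired design. With 3 arrays a group and no detection calls, the smaller differences and the dim genes cannot be resolved further.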

Other observations

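The 47 P450 genes that did not pass the filter had mean log2 levels from 3.34 (Cyp3a16) to 6.39 (Cyp2j9). Without a filter, 0 of the 47 passed an adjusted p of 0.05 in limma in any of the 8 comparisons. Of all 18193 genes in that fit, 0.781% passed after rhPBEF, 0.0055% after ventilation and 5.21% after both. Of the 47, 3, 2 and 2 had an unadjusted p under 0.05 in limma in these comparisons. The share of all genes at an unadjusted p was not computed for that fit. After both treatments the differences of the 47 from control ran from -0.32 (Cyp2j9) to 0.27 for Cyp27b1, the kidney enzyme that activates vitamin D.

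A probe set shared by Cyp2a5 and Cyp2a4, coumarin and steroid hydroxylases of nearly the same sequence, was left out of all counts because its symbol is not single. Its log2 level was 11.43, 11.12 and 10.12 in control, 10.48, 10.67 and 11.47 after rhPBEF, 9.52, 10.88 and 10.15 after ventilation, and 10.04, 10.24 and 10.78 after both, so that all 4 groups overlapped. The mean differences from control were -0.02, -0.71 and -0.54 and were not tested.

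Marker lists not described with a gene group were read as mean levels per array. After both treatments, relative to the control mean, type 1 cell markers ran from -0.26 to -0.03, type 2 cell markers from -0.26 to -0.01, ciliated cell markers from -0.34 to -0.10, fibroblast markers from -0.11 to -0.07, smooth muscle markers from -0.59 to 0.03, cardiac muscle markers from -0.81 to -0.27, alveolar macrophage markers from -0.16 to -0.13, skeletal muscle markers from 0.02 to 0.15, hepatocyte markers from 0.01 to 0.18 and adrenal cortex markers from -0.11 to 0.04. Of the 7 measured hepatocyte markers Alb, Apob and Fgb lay below the filter and Apoa1, Apoa2, Ttr and Tat above it. Of the alveolar macrophage markers, Marco rose by 1.65 after both while Krt79 fell by 0.94 and Siglecf by 1.03.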
